A study of Homo sapiens with 4 samples.

Results

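The genes of the red cell membrane and its skeleton were followed in K562 cells, a human erythroleukaemia line that makes fetal and embryonic globins, after knockdown of DROSHA. They are SLC4A1, GYPB, GYPC, SPTB, ANK1, EPB41, EPB42 and RHAG, taken by symbol from the authors' deposited table as 8 of its 58037 rows. All 8 had an adjusted p there, as did 14231 rows in all. By the authors' deposited table SLC4A1 rose in the knockdown cells, 0 of the 8 fell and 7 did not pass the test, with a threshold of 0.05 on DESeq2's adjusted p.

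The knockdown group was K562 cells transduced with a CRISPR lentivirus against DROSHA, and the control group was K562 cells given a non-specific CRISPR lentivirus. Both were selected with puromycin at 2.5 ng/μl and used at passages 25 to 30, and total RNA was sequenced from 2 libraries of each. The labels do not say whether the cells were clones or pools, nor whether replicates were separate cultures, and the p-values therefore cover library-to-library spread that could be technical in origin. DROSHA encodes the nuclease that cuts primary microRNA transcripts. Its RNA was reduced but not lost, with 2734 and 2770 normalised reads in the knockdown libraries, against 6107 and 6077 in the control libraries. The authors' deposited table gave DROSHA a log2 fold change of -1.15 (DESeq2 adjusted p = 8.1e-14). How much working nuclease remained cannot be told from RNA reads. The sign of the deposited fold change is not stated, and knockdown over control was read from DROSHA, so every direction here rests on that reading. Depth is known as a size factor, the library's depth relative to the others, of 1.09 and 0.813 for the knockdown libraries, against 1.23 and 0.918 for the control libraries.

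The lipid bilayer of a red cell is held by a net of spectrin on its inner face. Ankyrin joins spectrin to the anion exchanger band 3, and EPB41 joins spectrin to actin and to glycophorin C. Band 3 also carries the Rh complex and the glycophorins. In erythroid cells most of these genes are switched on as precursors mature, under GATA1 and KLF1. DROSHA-dependent microRNAs of this lineage include miR-144, miR-451 and miR-486, and the last lies within ANK1.

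Each gene has 1 mean over the 4 libraries in the authors' deposited table, with library values not listed. For 4 members the reads in each library could be worked back from that mean, because each mean is a sum of whole reads, each worth a fixed amount in its library. For SLC4A1, EPB42 and GYPB a single combination of reads gave the deposited mean and fold change. For SPTB 9 combinations did, and 1 of them kept libraries of the same group within 2-fold of each other. The reads of GYPC, ANK1, EPB41 and RHAG were too many to be resolved, and for these only the means of each group that follow from the deposited mean and fold change are given. Libraries of a group are told apart below as the deeper and the shallower one, since their replicate numbers are not known.

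Before any comparison, the members differed widely in level. RHAG, the ammonia-channel relative that holds the Rh complex together, stood at 9500 mean normalised reads per kb of exon over all libraries, the 99.0 percentile of 11566 tested coding genes. GYPC followed at 3039, GYPB at 1550, ANK1 at 1278 and EPB41 at 1221 normalised reads per kb. SPTB lay at 395, SLC4A1 at 153 and EPB42 at 97.4 normalised reads per kb, the last 2 at percentiles 36.3 and 27.3. While 0.351% of all tested genes were called, 0 of 10 erythroid markers were, and all 10 were tested. Their summed group means were 408132 normalised reads in knockdown cells and 421156 in control cells, and embryonic HBE1 was listed highest among them in the authors' deposited table, at a mean of 156201. Of 9 megakaryocyte markers 4 were tested, with summed group means of 4844 in knockdown cells and 5478 in control cells. Of 8 granulocyte and monocyte markers LYZ alone was tested, with a group mean of 312 in knockdown cells and 362 in control cells. Of 7 lymphocyte markers CD3D alone was tested, with 116 in knockdown cells and 127 in control cells. Among defining markers of these lineages, PF4, GP9, GP1BA, ELANE, CSF1R, MS4A1 and NKG7 were listed at 0 in the authors' deposited table.

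**Figure D1:**
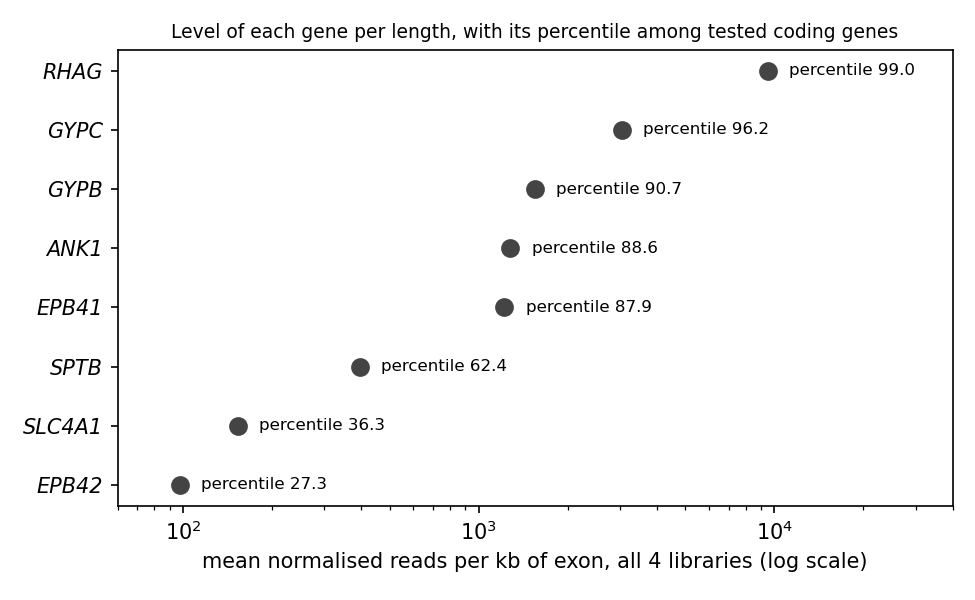
Mean normalised reads per kb of exon over all 4 libraries (horizontal log axis) for each of the 8 genes, with the percentile among tested coding genes. RHAG is highest at 9500 and EPB42 lowest at 97.4 normalised reads per kb.

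SLC4A1 encodes band 3, the chloride and bicarbonate exchanger that is the most abundant protein of the mature red cell membrane and anchors the skeleton through ankyrin. The gene occupies hg38 chromosome 17, bases 44248385 to 44268141, minus strand. Its recovered levels were 896 and 1125 normalised reads in the deeper and shallower knockdown libraries, against 564 and 554 in the deeper and shallower control libraries. These stood for 979 and 915 counted reads in the knockdown libraries, against 694 and 509 in the control libraries. Both knockdown libraries lay above both control libraries, as they did in 20.1% of 11214 genes with recovered reads. The gap between the groups was larger than the spread within either. Knockdown libraries differed by 1.26-fold from each other and control libraries by 1.02-fold.

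The authors' deposited table gave SLC4A1 a log2 fold change of 0.85, or 1.80-fold, with an implied standard error of 0.185 and a 95% interval from 0.49 to 1.21. By DESeq2, the authors' deposited table put its adjusted p at 0.00228. In bulk RNA more cells making the transcript and more transcript in each cell cannot be told apart. At an adjusted p under 0.05, 0.351% of all tested genes were called and 0.33% were called higher, and 1 called gene among 8 is too small a count to set against that background. Of 14231 tested genes, 14 had both a fold change and a mean at least those of SLC4A1, itself included. A limma fit, added after seeing the data, on the recovered reads of 11216 genes, which called 0.0892% of them, gave SLC4A1 a log2 fold change of 0.84 (SE 0.157) and an adjusted p of 0.0666. Leaving out each library in turn with limma gave log2 fold changes from 0.68 to 1.01. None could fall below 0, since both knockdown libraries lay above both control libraries. Each such fit sets 1 library against 2, takes its spread from the group of 2 and limma's trend over genes, and assumes that the lone library varies alike, so its p says little about stability. With that limit, the adjusted p was 4.1e-04 without the deeper knockdown library, 0.0603 without the shallower knockdown library, 0.548 without the deeper control library and 0.767 without the shallower control library.

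EPB42 (chromosome 15, bases 43197227 to 43221125, minus strand) encodes an inactive relative of the transglutaminases that binds band 3 and ankyrin and steadies their joint. Its recovered levels were 291 and 359 normalised reads in the deeper and shallower knockdown libraries, against 246 and 288 in the deeper and shallower control libraries. The groups did not overlap, but the lower knockdown library and the higher control library were nearly level. Knockdown above control in both libraries held for 20.1% of 11214 genes with recovered reads. EPB42 was given a log2 fold change of 0.28 in the authors' deposited table, with an implied standard error of at most 0.238 and an adjusted p of 0.898. It did not pass the test, and its interval from -0.18 to 0.75 includes 0. GENCODE release 29 places a same-strand processed transcript over 447 bases of its exons, 14.7% of their length, and reads there cannot be assigned to EPB42 alone.

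**Figure D2:**
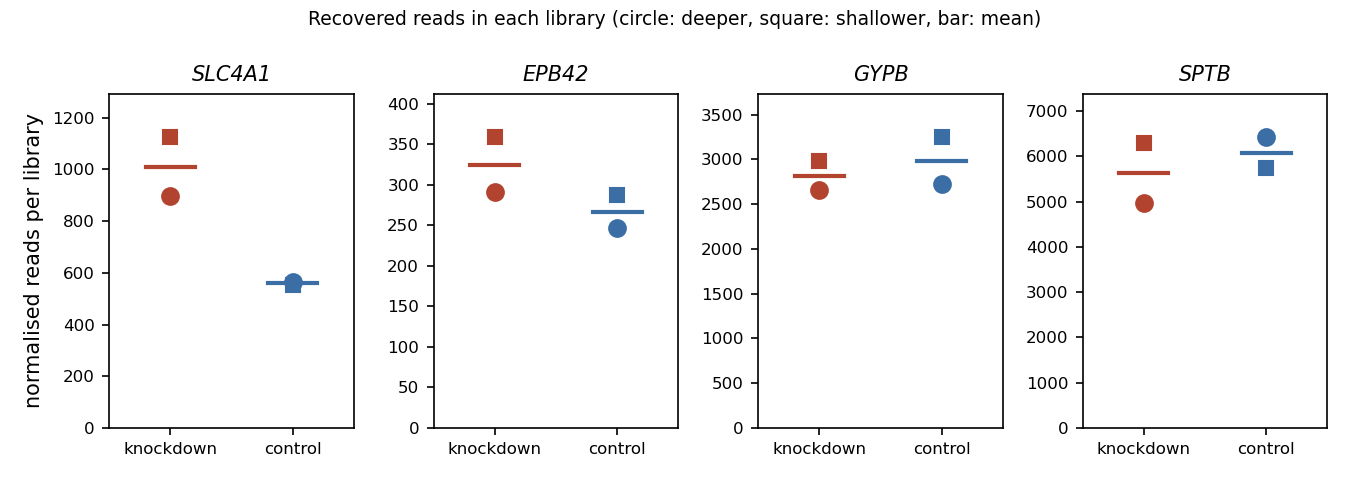
Normalised reads recovered for each library (vertical axis, from 0) of SLC4A1, EPB42, GYPB and SPTB, knockdown left of control. Circles are the deeper and squares the shallower library of a group, and bars are group means. SLC4A1 stands at 896 and 1125 in the knockdown libraries, against 564 and 554 in the control libraries, while the groups of GYPB and SPTB overlap.

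ANK1 encodes ankyrin, the adaptor between spectrin and band 3, and occupies chromosome 8, bases 41653220 to 41896762, minus strand. Its group means implied by the deposited values were 13833 normalised reads in knockdown cells and 13761 in control cells. The authors' deposited table lists its log2 fold change as 0.01 and its adjusted p as 0.999. EPB41 (chromosome 1, bases 28887091 to 29120046, plus strand), which ties spectrin to actin, had implied group means of 24319 normalised reads in knockdown cells and 24498 in control cells. For EPB41 the authors' deposited table lists -0.01 and 0.999. That adjusted p is shared by 1329 genes, and for this reason no useful interval can be worked back for them.

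SPTB (chromosome 14, bases 64746283 to 64879907, minus strand) encodes the beta chain of erythroid spectrin, the long rod of the skeleton. Its recovered levels were 4958 and 6285 normalised reads in the deeper and shallower knockdown libraries, against 6424 and 5736 in the deeper and shallower control libraries. The groups overlapped, since the shallower knockdown library lay between the control libraries. SPTB stood in the authors' deposited table at a log2 fold change of -0.11, with an implied standard error of at most 0.158 and an adjusted p of 0.955. PLEKHG3 runs on the opposite strand over 3408 bases, 23% of the exon length of SPTB, and the authors' deposited table lists it at a mean of 1.68.

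RHAG (chromosome 6, bases 49605158 to 49636884, minus strand) had implied group means of 24086 normalised reads in knockdown cells and 27042 in control cells. RHAG stood in the authors' deposited table at a log2 fold change of -0.17, with an implied standard error of at most 0.145 and an adjusted p of 0.904. GYPC (chromosome 2, bases 126655933 to 126696670, plus strand) encodes glycophorin C, which holds the EPB41 junction to the membrane. It had the lowest fold change among the 8, with implied group means of 9987 normalised reads in knockdown cells and 13184 in control cells. GYPC stood in the authors' deposited table at a log2 fold change of -0.40, with an implied standard error of 0.14, an interval from -0.68 to -0.13 and an adjusted p of 0.304. Its p before adjustment was 0.00425, so GYPC and SLC4A1 were the 2 members with an unadjusted p under 0.05, a mark reached by 6.8% of all tested genes. GYPC did not pass the adjusted test.

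**Figure D3:**
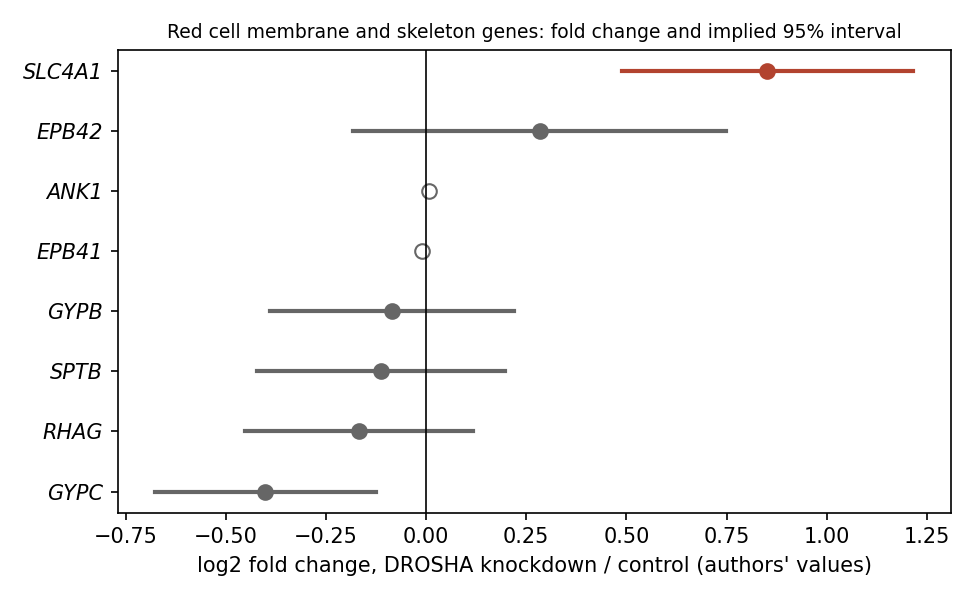
Log2 fold change of DROSHA knockdown over control (horizontal axis) for the 8 genes, with lines for the 95% interval implied by the deposited adjusted p. Red marks the gene past an adjusted p of 0.05, SLC4A1 at 0.85. Open circles, ANK1 and EPB41, have no usable interval.

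GYPB encodes glycophorin B, a sialic-acid-rich surface protein that carries the S and s blood group antigens. It occupies chromosome 4, bases 143996104 to 144019345, minus strand, near its close copy GYPE. The first 90 coding bases of both genes, taken from GENCODE release 29 transcripts on the minus strand, are printed because they show how little separates the reads of one from those of another. Capitals mark bases that differ from GYPB at the same place, of which GYPE has 4.
GYPB: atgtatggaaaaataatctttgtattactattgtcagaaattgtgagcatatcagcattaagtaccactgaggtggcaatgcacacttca
GYPE: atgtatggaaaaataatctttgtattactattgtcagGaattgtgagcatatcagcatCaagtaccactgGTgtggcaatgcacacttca

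Over the full length of its transcripts, 12.7% of the 50-base stretches of GYPB also occur in transcripts of other genes, GYPE among them at 1.05%. For SLC4A1 the same share was 0.863%, and for GYPC it was 0. How the authors' counting treated reads that fit several genes is not given in the sources, so the level of GYPB is uncertain. GYPB had 2654 and 2978 normalised reads in the deeper and shallower knockdown libraries, against 2725 and 3250 in the deeper and shallower control libraries. The groups overlapped. GYPB stood in the authors' deposited table at a log2 fold change of -0.09, with an implied standard error of at most 0.156 and an adjusted p of 0.968. For GYPE the authors' deposited table lists a log2 fold change of 0.04 (adjusted p = 0.986), which did not pass the test.

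As a set, the 8 genes had 3 fold changes above 0 and 5 below. Their median log2 fold change was -0.05, against -0.03 over all 14231 tested genes, of which 45.1% lay above 0. The 7 that did not pass ranged from -0.40 to 0.28 in the authors' deposited table. In each of the 4 genes with recovered reads the shallower knockdown library read higher than the deeper one, by 1.12-fold in GYPB to 1.27-fold in SPTB. The control libraries showed no such order, the shallower being higher in EPB42 and GYPB and lower in SLC4A1 and SPTB. How common that order among knockdown libraries is over all genes was not counted. Whether it has a part in the rise of SLC4A1 was not tested.

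Other genes of the membrane were read from lists of band 3 partners, junction proteins, transporters, blood group carriers, paralogues and transcription factors. Some genes stand in more than 1 list. Of 76 related genes with an adjusted p, the authors' deposited table called 0 by DESeq2, against 0.351% of all tested genes. Limma called 0 of the 35 with recovered reads, against 0.0892% of 11216 genes. With shares that low, counts of 0 say little about the related genes. Before adjustment 7 of the 76 had a p under 0.05, 5 higher and 2 lower, or 9.21% against 6.8% of all tested genes.

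Among band 3 and ankyrin partners, 10 of 11 were tested, 6 lay above 0 and the median log2 fold change was 0.03. RHCE, a carrier of Rh antigens with a near-identical copy in RHD, stood in the authors' deposited table at 0.28 (adjusted p = 0.815). STOM, the membrane scaffold stomatin, was in the authors' deposited table at -0.12 (adjusted p = 0.943). The Landsteiner-Wiener antigen ICAM4 was the lowest of the list in the authors' deposited table, at -0.39 (adjusted p = 0.428).

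At the actin junctions all 14 genes were tested, 5 lay above 0 and the median was -0.06. CAPZB, which caps actin filaments, stood in the authors' deposited table at 0.25 (adjusted p = 0.78) and TMOD1, which caps their other end, at 0.23 (adjusted p = 0.807). TMOD3 at -0.17 (adjusted p = 0.908) and the tropomyosin TPM3 at -0.15 (adjusted p = 0.917) had in the authors' deposited table the smallest p below 0. None of these 4 passed.

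Transporters and channels had 17 of 18 tested, 8 above 0 and a median of -0.02. The thinly covered exporter ABCG2 stood in the authors' deposited table at 0.77 (adjusted p = 0.827). The lactate carrier SLC16A1 stood in the authors' deposited table at -0.20 (adjusted p = 0.823). Blood group carriers had 11 of 17 tested, 4 above 0 and a median of -0.08. Those named by the rule were, in the authors' deposited table, KEL at 0.28 (adjusted p = 0.699), SEMA7A at 0.09 (adjusted p = 0.975), BSG at -0.29 (adjusted p = 0.671) and CD55 at -0.22 (adjusted p = 0.819).

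Paralogues of the members, listed as non-erythroid, had 13 of 25 tested, 9 above 0 and a median of 0.13. EPB41L2, a relative of EPB41, stood in the authors' deposited table at 0.50 (adjusted p = 0.498). Its recovered levels were 1157 and 1758 normalised reads in the deeper and shallower knockdown libraries, against 1081 and 979 in the deeper and shallower control libraries. The shallower knockdown library stood well above the other 3. SPTAN1, the spectrin alpha chain of other tissues, stood in the authors' deposited table at 0.49 (adjusted p = 0.562). It had 499 and 463 normalised reads in the deeper and shallower knockdown libraries, against 306 and 379 in the deeper and shallower control libraries. The groups did not overlap, with knockdown above control as in 20.1% of 11214 genes with recovered reads. The transglutaminases TGM2 at -0.04 and TGM1 at -0.14 had in the authors' deposited table the smallest p below 0, each with an adjusted p of 0.987.

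Transcription factors known to act at membrane genes had 13 of 14 tested, 2 above 0 and a median of -0.15. GATA1, the master regulator of the lineage, stood in the authors' deposited table at 0.25 (adjusted p = 0.848) and TAL1 at 0.04 (adjusted p = 0.987). NFE2 at -0.23 (adjusted p = 0.807) and IKZF1 at -0.21 (adjusted p = 0.82) had in the authors' deposited table the smallest p below 0. None passed the test.

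**Figure D4:**
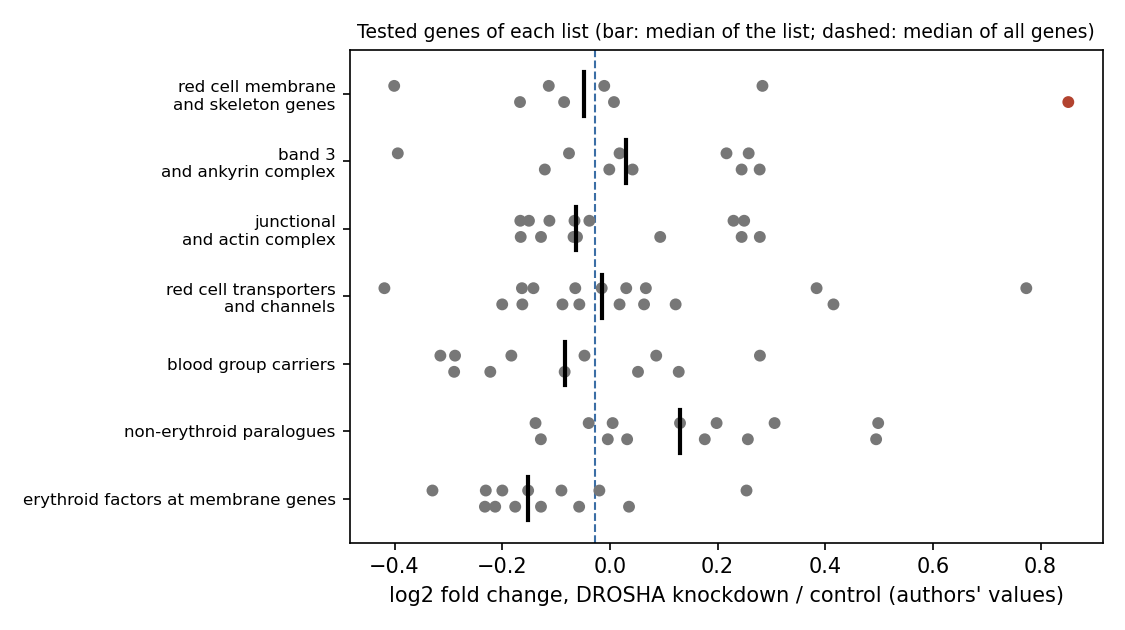
Log2 fold change of DROSHA knockdown over control (horizontal axis) for each tested gene of the 8 and of the related lists, in rows. Black bars are list medians, the dashed line is the median of all tested genes at -0.03, and red marks the gene past an adjusted p of 0.05. SLC4A1 at 0.85 is the furthest point to the right in the plot.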

How the data were processed

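Total RNA from 2 knockdown and 2 control libraries was prepared with a stranded total RNA kit, per the labels. The authors deposited 1 table with an adjusted p-value, a log2 fold change and a mean normalised read signal per gene, per the file headers. DESeq2 1.24.0, STAR 2.6.0a, Bowtie2 2.3.4.1 and build hg38 are named in the submitters' processing notes. The counter and its strand setting are not given in the sources, so overlapping genes may share reads. No gene with a mean under 25.7 normalised reads has an adjusted p. A further log2 column of unstated assay was not used.

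The adjustment was undone over 14231 genes to give an implied p, standard error and interval, which are limits where genes share an adjusted p. Reads were recovered by searching whole-read sums that matched the 15 digits of the mean and the fold change that a negative binomial fit allows. This gave 1 combination for each of the 11214 tested genes with a mean up to 3000, and for DROSHA. Of 487 of them with an unshared p, 467 allowed the standard error to be refitted from the reads. In 100% of those 467 it was within 5% of the implied one. The search was tested on simulated data. For SPTB the 2-fold limit was used, which 99.7% of 3779 well-covered genes met.

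Limma 3.58.1 in R 4.3.3 was run, with a trend, on log2(normalised reads + 1). In simulated data, with a like spread set for all genes, limma called 83 of 100 genes changed 2-fold and 34 of 100 changed 1.5-fold. Changes near 1.5-fold were thus often missed, and a gene that limma did not call may still have changed. An exact permutation test of 2 against 2 libraries cannot go below a 2-sided p of 0.333 and was not used. Positions, exons and shared 50-base stretches came from GENCODE release 29 on hg38, with Python 3.11.15. The table has 0 columns for single libraries, so the planned edgeR fit was not made. Genes named are all members, DROSHA and, from each list, those called and the 2 smallest p above and below 0, and some genes that this rule names are not reported here. Members and lists were chosen with earlier results of these data known.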

Additional observations from a re-analysis of the deposited data

How the results depend on the processing

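SLC4A1 was the 1 called member at adjusted p thresholds of 0.1 and 0.01 as well. Without adjustment 2 members and 7 related genes had a p under 0.05. Limma on recovered reads, chosen after seeing the data, called 0 members, and leaving out each library gave 0 to 1 members and 0 to 1 related genes. Those fits have 1 library in a group, assumed to vary like the group of 2, and their calls are not read as gained or lost. The related gene was EPB41L2 without the deeper knockdown library, where the lone knockdown library is its highest, at 1758 normalised reads. The fold change of SLC4A1 stayed above 0 in all 8 of its recomputations. Since both knockdown libraries lay above both control libraries, leaving a library out could not turn its sign. That the sign held therefore says little about stability. Why limma and DESeq2 differ on it was not tested. Members that were not called changed sign near 0: EPB41 to 0.0168 after re-centring on the median of all genes, GYPB from -0.21 to 0.0451 and SPTB from -0.29 to 0.0502 over the libraries left out. No paired analysis was possible because the recovered libraries carry no replicate number. EdgeR with another normalisation, a renewed DESeq2 fit and a fit with no filter were not run, since reads of the most abundant genes could not be recovered. Depth did not allow single-library values for GYPC, ANK1, EPB41 and RHAG.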

Other observations

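The neighbours of SLC4A1 were looked up after its value was seen. The nearest 3 tested genes on each side lay from 26759 to 85074 bases away. Their log2 fold changes in the authors' deposited table ran from -0.32 to 0.06, against 0.85 for SLC4A1. Of these neighbours 0 were called, against 0.351% of all tested genes. UBTF, the nearest and a factor of ribosomal RNA transcription, stood in the authors' deposited table at 0.05 (adjusted p = 0.986), and GRN, which encodes progranulin, at -0.32 (adjusted p = 0.834).

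Within the extent of ANK1 the table lists the hairpin MIR486-1, also looked up after its value was seen. Its recovered reads were 12 and 2 in the deeper and shallower knockdown libraries, against 1 and 0 in the deeper and shallower control libraries. The row had no adjusted p, and the ANK1 row around it had a log2 fold change of 0.01 in the authors' deposited table. Reads of the hairpin and of the ANK1 intron around it cannot be told apart.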
